A study of Mus musculus with 12 samples.

Results

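Serine is made from a glycolytic intermediate by 3 enzymes encoded by Phgdh, Psat1 and Psph, and the transcription factor ATF4 drives these genes together with Asns and a group of stress response genes. The 10 genes described here were taken by symbol: Psat1, Phgdh, Psph, Shmt2, Asns, Atf4, Ddit3, Trib3, Chac1 and Sesn2, out of 29641 genes listed in the deposited tables. They were chosen by their measured CPM in mutants and heterozygotes of each organ, and Psat1 because it differed in opposite directions in the 2 organs. Their differences between genotypes are therefore given as a description, with a standard error and no test. Tests are given only for other genes, namely genes of the same pathways, Gfi1, cell type markers and mitochondrially encoded genes. Counts over all genes do not leave the 10 out.

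The libraries hold ribosome-bound RNA of newborn mice (postnatal day 0 to 1), pulled down with an antibody against an HA tag and sequenced. All animals carried the RiboTag allele on both copies (RiboTagHA/HA), which adds HA to a ribosomal protein in cells with Cre recombinase and their descendants. Controls were heterozygotes, Gfi1Cre/+;RiboTagHA/HA, with Cre at 1 copy of Gfi1, and mutants were Gfi1Cre/Cre;RiboTagHA/HA, with Cre at both copies. Gfi1 encodes a zinc finger repressor needed by hair cells, the receptor cells of hearing and balance, and by granulocytes. Cochlea and vestibule each had 3 libraries per genotype, 12 in all, described as independent biological triplicates. Mutants thus carried more copies of Cre, and that dose and the loss of unmodified Gfi1 cannot be told apart. The NuGEN Ovation Ultralow kit was used for the cochlea and the NEBNext Ultra Directional kit for the vestibule, so organ and kit cannot be told apart either, and levels were not compared between organs.

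As background, PHGDH, PSAT1 and PSPH act in sequence, and SHMT2 passes a carbon of serine to folate in mitochondria. When amino acids are short, unfolded protein collects in the endoplasmic reticulum or mitochondria are disturbed, kinases of the initiation factor eIF2 slow translation in general while the Atf4 messenger is translated more. ATF4 then turns on genes of amino acid supply and, under lasting stress, Ddit3 (CHOP), Trib3, Chac1 and Sesn2. Because Atf4 is set largely at translation and protein stability, its RNA level alone does not give its activity.

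ATF4 binds with C/EBP partners to a composite DNA element, whose core was searched as TGATGNAA on both strands in the 250 bases before each RefSeq start (GRCm38.p6). All 10 genes matched, with 11 start windows, and 2 of the 11 held the letters, beside 3.45% of 32851 windows of all genes. The cyclic AMP response element, TGACGTCA, which cannot share the same 8 bases with the first motif, was in 0 of the 11 windows and in 1.55% of all windows. The lines below show the match in Asns, the match in Chac1 and, because the largest differences were in Psat1, the 100 bases before its start. Each is written 5′ to 3′ on the strand of the gene, and capitals mark the match.

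Asns, chr6:7693214-7693243, minus strand: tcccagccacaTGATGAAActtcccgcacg

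Chac1, chr2:119350992-119351071, plus strand: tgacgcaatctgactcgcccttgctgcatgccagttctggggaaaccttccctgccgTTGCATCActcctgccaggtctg

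Psat1, chr19:15925060-15925159, minus strand: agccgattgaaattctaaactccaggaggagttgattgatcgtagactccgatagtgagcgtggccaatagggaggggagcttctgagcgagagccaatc

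In Asns the match lay 23 to 16 bases before the RefSeq start, inside an exon of the longer GENCODE gene model. In Chac1 it lay 193 to 186 bases before the start, on the strand opposite to the gene. No match stood in the window of Psat1, which lies in an intron of the longer GENCODE gene model, nor in those of Phgdh, Psph, Shmt2, Atf4, Ddit3, Trib3 and Sesn2. A match of letters is a description and not a binding site.

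Levels are CPM, read counts scaled to the library total. Cochlear totals were 7531518 to 9363796 reads and vestibular totals 18951026 to 29370267. A single read was thus worth 0.107 to 0.133 CPM and 0.0340 to 0.0528 CPM. Gfi1 itself was read at 165, 106 and 126 CPM in the cochlear heterozygotes and at 75.1, 64.3 and 69.1 CPM in the mutants. In the vestibule Gfi1 stood at 534, 450 and 483 CPM in heterozygotes and 236, 198 and 208 CPM in mutants. Gfi1 was lower in every mutant library of both organs (log2 change -0.90, adjusted p = 0.00355, and -1.19, adjusted p = 0.00234, limma). The sources used here do not say which part of Gfi1 the Cre allele removes. Some libraries stood apart. Both vestibular replicate 1 libraries had 0.684% and 0.729% of their reads outside the listed genes, against 0.119% to 0.127% in the other 4. Both cochlear replicate 3 libraries held 33207 and 27152 CPM of mitochondrially encoded transcripts, against 58562 to 78544 CPM in the other 4. In the vestibule these transcripts held 7212, 8626 and 2733 CPM in heterozygotes 1 to 3, and 2368, 5156 and 1282 CPM in mutants 1 to 3. In the cochlea they held 78544, 77073 and 33207 CPM in heterozygotes 1 to 3, and 58562, 69794 and 27152 CPM in mutants 1 to 3. They were lower in the mutant of each numbered pair of both organs. Of the 7 mitochondrial genes tested in the vestibule, 0 passed (limma; 3 at an unadjusted p under 0.05, and 0 with edgeR), and with the replicate number as a block all 7 were lower, beside 23.3% of all genes. Of the 7 tested in the cochlea, 0 passed (limma, and 0 with edgeR), and 2 were lower with the block, beside 8.52% of all genes. The part of the mitochondrial share in the Psat1 values was not tested.

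The tagged RNA was checked against markers. All 10 hair cell markers (Myo7a, Pou4f3, Gfi1, Atoh1, Myo6, Otof, Cdh23, Espn, Tmc1 and Lhfpl5) were read in every group, and none of the markers listed for other cell types was at 0 throughout a group. The 10 macrophage markers together reached 2322 to 2906 CPM in cochlear heterozygotes and 7229 to 9053 CPM in vestibular ones, beside 4344 to 5105 and 8972 to 9673 CPM for the hair cell list. The pull-down therefore also held transcripts known from other cells.

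Psat1 had the largest differences of the 10 genes, and they pointed in opposite directions. Psat1 (chr19:15904678-15947337, minus strand) encodes phosphoserine aminotransferase, the second enzyme of serine synthesis. Cochlear heterozygotes had 837, 737 and 841 CPM and cochlear mutants 313, 306 and 305 CPM. Vestibular heterozygotes had 328, 346 and 299 CPM and vestibular mutants 722, 658 and 662 CPM. The genotypes did not overlap in either organ: every cochlear mutant lay below every cochlear heterozygote, and every vestibular mutant above every vestibular heterozygote. Means went from 805 ± 59.3 to 308 ± 4.63 CPM in the cochlea (SD, n = 3 for this and all later means), 2.62-fold lower, and from 324 ± 23.7 to 680.4 ± 35.9 CPM in the vestibule, 2.10-fold higher. These levels rest on 2368 to 7879 reads per cochlear library and 7344 to 16159 per vestibular library. The 3 cochlear mutants lay closer together than the 3 cochlear heterozygotes.

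On the log2(CPM + 1) scale, used for all differences below and which understates those of low genes, Psat1 differed by -1.38 (SE 0.12) in the cochlea and by 1.07 (SE 0.12) in the vestibule. The cochlear minus the vestibular difference was -2.45 (SE 0.18). Libraries of the same replicate number differed by -1.42, -1.27 and -1.46 in the cochlea and by 1.14, 0.92 and 1.14 in the vestibule, so that every numbered pair showed the direction of its organ. Among genes ranked by difference, Psat1 was number 139 from the lowest of 17985 genes tested in the cochlea and number 279 from the highest of 15595 tested in the vestibule. Its difference between organs was the 31st most negative of 14674. Of those 14674 genes, 20, or 0.136%, passed the test (limma, adjusted p under 0.05) as lower in the cochlea and higher in the vestibule, and 2, or 0.0136%, the other way round. Psat1 is counted among the 20, but it was chosen for this pattern, so nothing is read from its place there. Without both cochlear replicate 3 libraries the cochlear value was -1.34 (SE 0.15), and without both vestibular replicate 1 libraries the vestibular value was 1.03 (SE 0.10). Fewer cells of a type and less RNA per cell cannot be told apart in these bulk samples.

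**Figure D1:**
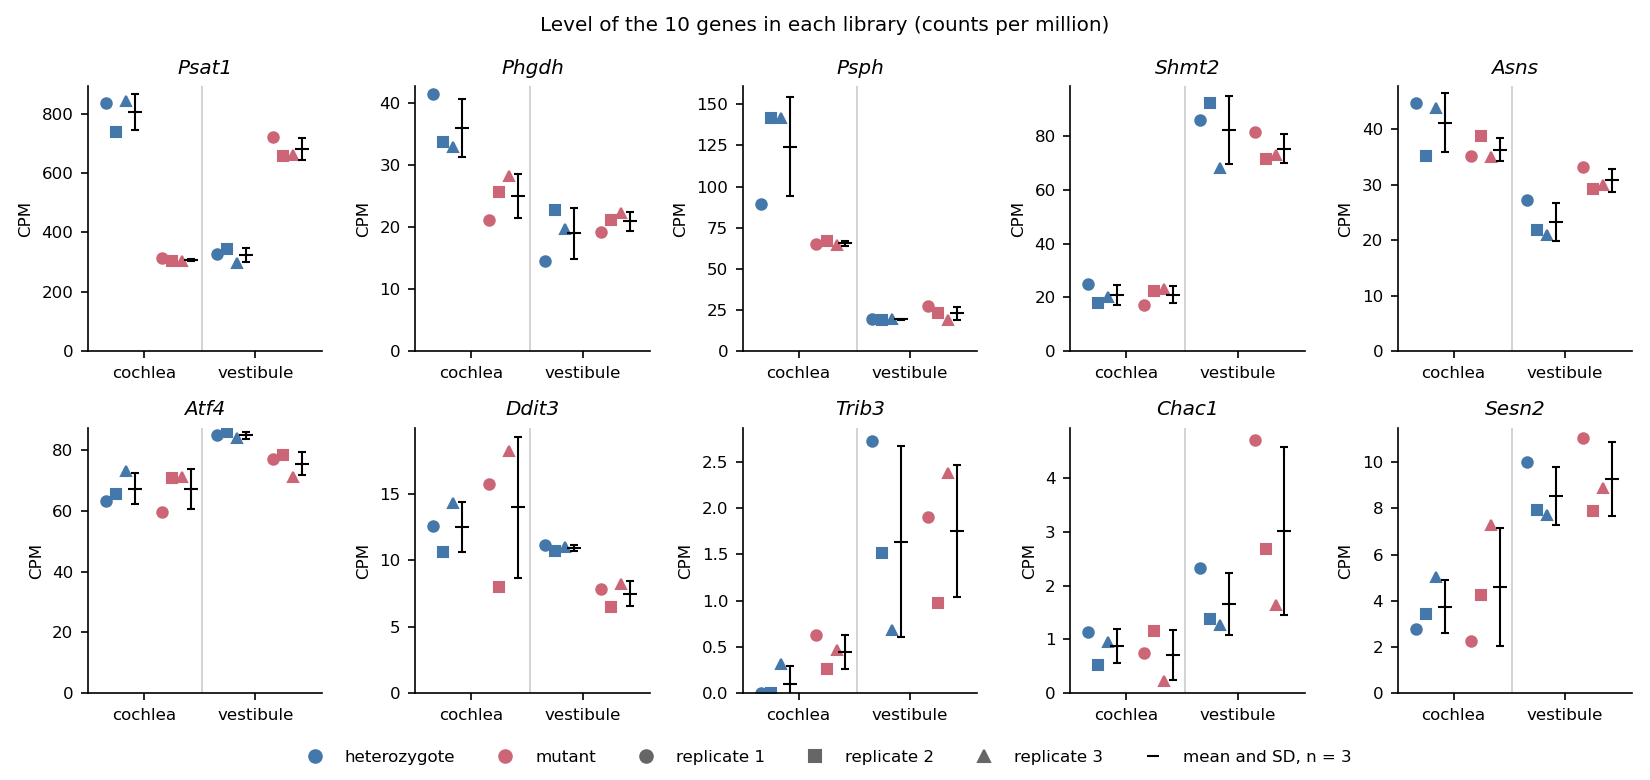
Level of each of the 10 genes in CPM (vertical axes, linear, from 0) in the 12 libraries, by organ (horizontal axis), genotype (colour) and replicate number (symbol); bars give the mean and SD of 3 libraries. Psat1 mutants lie at 305 to 313 CPM below 737 to 841 CPM in the cochlea and at 658 to 722 CPM above 299 to 346 CPM in the vestibule, while the genotypes of Shmt2, Trib3, Chac1 and Sesn2 overlap in both organs.

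Hair cell markers moved with genotype in the cochlea. Of the 10 listed, 6 fell there (Myo7a, Gfi1, Otof, Cdh23, Espn and Lhfpl5; limma, adjusted p under 0.05), beside 2.52% of all genes tested, and the list together reached 4344 to 5105 CPM in the 3 heterozygotes, against 2995 to 3530 CPM in the 3 mutants. Myo6 made up most of these cochlear sums, at 3234 ± 298 and 2337 ± 211 CPM, and did not pass (limma, adjusted p = 0.188, and 0.00916 with the replicate number as a block). In the vestibule Atoh1 rose and Gfi1 fell, beside 3.50% of all genes in either direction, and the sums were 8972 to 9673 and 9378 to 10091 CPM. Gfi1 is the gene that carries Cre, so its calls are not read as a change of hair cell markers. It is nevertheless in all counts and sums of the list. In the vestibule it gave 450 to 534 CPM of the heterozygote sums and 198 to 236 CPM of the mutant sums. With the replicate number as a block Pou4f3, Myo6 and Lhfpl5 were higher there as well (adjusted p = 0.00779, 0.00103 and 0.00674), and in the cochlea 8 markers were lower and Atoh1 was higher, beside 23.3% and 8.52% of all genes. Neuronal markers rose in both organs, 7 of 9 tested in the cochlea (4.41% of all genes in either direction) and 4 of 7 in the vestibule (3.50%), and 8 and 6 with the block. The cochlear counts include Neurod1, which reached 1 CPM in only 1 heterozygote and so passed the filter on low values through the mutants. The filter thus fixed the direction of its call, which is not read as support. Neuronal sums were 993 to 1130 against 2002 to 2224 CPM in the cochlea and 1310 to 1511 against 2280 to 2374 CPM in the vestibule. Nefl and Nefm made up most of these sums in both organs. In the vestibule their means were 397 ± 31.3 and 936 ± 101 CPM in heterozygotes and 650 ± 85.4 and 1557 ± 61.6 CPM in mutants. Of their exon bases, 32.8% and 19.2% are shared with each other on opposite strands, and whether counting used strand is not given. Vestibular sums of mesenchyme markers were 2039 to 2667 CPM (heterozygotes) and 1103 to 1534 CPM (mutants). Glial sums there were 353 to 384 and 204 to 240 CPM. Of these vestibular markers 2 of 8 and 1 of 10 fell, beside 3.50% of all genes in either direction. With the block 8 of 8 and 7 of 10 were lower, beside 23.3% of all genes in either direction. In the cochlea mesenchyme sums were 1514 to 2050 and 1560 to 1886 CPM. Summed granulocyte markers were at 29.1 to 53.0 and 3.87 to 9.37 CPM in cochlear heterozygotes and mutants, and at 75.9 to 126 and 11.6 to 12.5 CPM in vestibular ones. Calls of single granulocyte genes are not counted, since Ngp, Ltf and Camp were above 1 CPM in heterozygotes only. Of 5 mast cell markers 2 fell in the cochlea and 4 in the vestibule, beside 4.41% and 3.50% of all genes in either direction. Their vestibular sums were 1543 to 1806 and 186 to 402 CPM. The part of these marker differences in the Psat1 values was not tested.

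**Figure D2:**
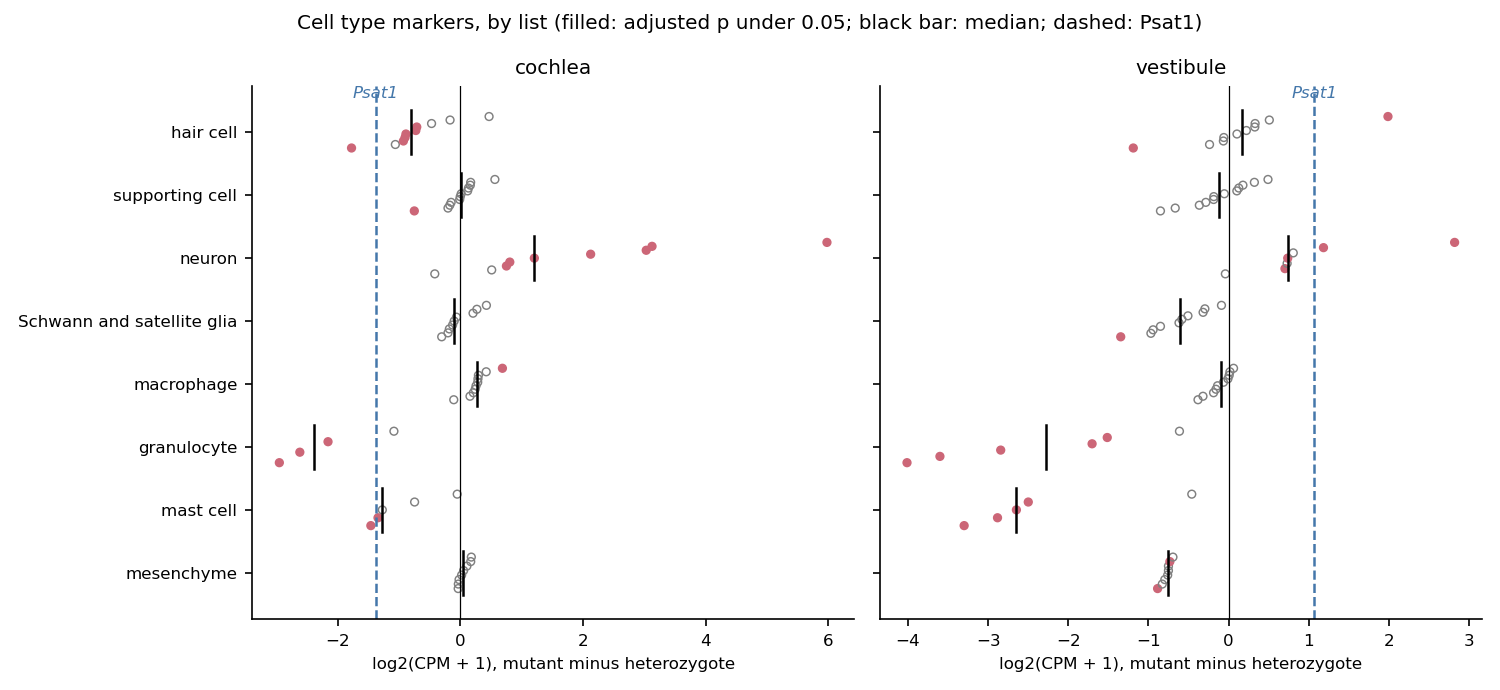
Mutant minus heterozygote difference on the log2(CPM + 1) scale (horizontal axes, with a range of their own in each organ) for the tested genes of 8 marker lists (rows); filled points passed the limma test at an adjusted p under 0.05, black bars are list medians and the dashed line is Psat1. The hair cell median was -0.81 in the cochlea and 0.16 in the vestibule, against -1.38 and 1.07 for Psat1.

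Psph, the phosphatase that completes serine synthesis, was lower in cochlear mutants and overlapped in the vestibule. Psph (chr5:129765558-129787449, minus strand) had 89.7, 142 and 141 CPM in cochlear heterozygotes and 65.2, 67.2 and 64.4 CPM in cochlear mutants. All 3 mutants lay below the lowest heterozygote, replicate 1, which stood well below the other 2 heterozygotes. Means were 124 ± 30.0 and 65.6 ± 1.46 CPM, a difference of -0.88 (SE 0.17), or -0.76 (SE 0.18) without both replicate 3 libraries. Vestibular heterozygotes had 19.9, 19.3 and 19.5 CPM and mutants 27.3, 23.1 and 19.2 CPM. The vestibular groups overlapped, since mutant replicate 3 lay at the level of the heterozygotes while mutant replicate 1 lay above them, and the difference was 0.22 (SE 0.17). Between organs (cochlear minus vestibular) the difference was -1.102 (SE 0.25). Of the exon bases of Psph, 10.4% are shared with Cct6a on the opposite strand, and the sources used here do not say whether counting used strand.

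Phgdh, which opens the pathway as phosphoglycerate dehydrogenase, was lower in cochlear mutants by less. Phgdh (chr3:98313170-98339990, minus strand) had 41.4, 33.7 and 32.9 CPM in cochlear heterozygotes and 21.2, 25.7 and 28.3 CPM in mutants. The groups did not overlap, though heterozygote replicate 3 and mutant replicate 3 were close, and the difference was -0.51 (SE 0.17). Without both replicate 3 libraries it was -0.66 (SE 0.20). In the vestibule heterozygotes had 14.6, 22.7 and 19.7 CPM and mutants 19.3, 21.2 and 22.4 CPM. The vestibular genotypes overlapped, with heterozygote replicate 1 the lowest of the 6, and differed by 0.15 (SE 0.20). Between organs the difference was -0.66 (SE 0.26).

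The level of Phgdh is uncertain because it shares sequence with 8 processed pseudogenes, each with a match of at least 500 bases at 95.9% to 99.3% identity in GENCODE M21. Of these, 3 were listed in the tables, and their summed level was 9.56 to 15.8 CPM in cochlear heterozygotes and 5.94 to 8.69 CPM in cochlear mutants. In the vestibule they summed to 25.1 to 38.6 and 31.7 to 38.3 CPM, which is above Phgdh itself. The sources used here do not say how reads that fit several copies were assigned.

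Shmt2, the mitochondrial serine hydroxymethyltransferase, overlapped between genotypes in both organs. Shmt2 (chr10:127517123-127522444, minus strand) had 25.02, 17.8 and 20.3 CPM in cochlear heterozygotes and 17.4, 22.5 and 23.2 CPM in mutants. Means were 21.0 ± 3.67 and 21.0 ± 3.16 CPM, a difference of less than the SE of 0.19. In the vestibule heterozygotes had 85.9, 92.1 and 67.9 CPM and mutants 81.2, 71.3 and 72.8 CPM. The highest heterozygotes stood above all mutants and the lowest below them, and the difference was -0.12 (SE 0.15). Between organs the difference was 0.11 (SE 0.24).

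Asns encodes asparagine synthetase, an ATF4 target used as a readout of amino acid shortage. Asns (chr6:7675169-7693254, minus strand) had 44.7, 35.2 and 43.8 CPM in cochlear heterozygotes and 35.2, 38.7 and 34.98 CPM in mutants. The cochlear genotypes overlapped through heterozygote replicate 2, and differed by -0.17 (SE 0.15). Vestibular heterozygotes had 27.2, 21.9 and 20.9 CPM and mutants 33.2, 29.2 and 30.0 CPM. All 3 vestibular mutants lay above all heterozygotes, with a difference of 0.39 (SE 0.16), or 0.45 (SE 0.14) without both replicate 1 libraries. The numbered pairs differed by 0.28, 0.40 and 0.50. The cochlear minus the vestibular difference was -0.56 (SE 0.21), the same sign as in Psat1, Psph and Phgdh.

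Atf4 RNA lay within a narrow range in all groups. Atf4 (chr15:80255184-80257541, plus strand) had 63.1, 65.5 and 73.0 CPM in cochlear heterozygotes and 59.6, 70.7 and 70.9 CPM in mutants. The cochlear means of 67.2 ± 5.18 and 67.1 ± 6.46 CPM differed by less than their spread (SE of the difference 0.13). In the vestibule heterozygotes had 84.7, 85.8 and 83.7 CPM and mutants 76.9, 78.1 and 71.1 CPM. Every vestibular mutant was below every heterozygote, by -0.17 (SE 0.11), in the direction opposite to that of Psat1 and Asns there.

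Ddit3 encodes CHOP, a transcription factor made under lasting stress that favours cell death. Ddit3 (chr10:127290774-127296288, plus strand) had 12.6, 10.6 and 14.3 CPM in cochlear heterozygotes and 15.7, 8.001 and 18.2 CPM in mutants. The cochlear mutants spread on both sides of the heterozygotes, and the difference was 0.09 (SE 0.27). In the vestibule Ddit3 had 11.2, 10.7 and 10.96 CPM in heterozygotes and 7.86, 6.46 and 8.19 CPM in mutants. All vestibular mutants were lower, with a difference of -0.50 (SE 0.19), or -0.52 (SE 0.21) without both replicate 1 libraries. The cochlear minus the vestibular difference was 0.58 (SE 0.35), and 0.91 without cochlear mutant replicate 2, the library with the lowest cochlear level. Of the exon bases of Ddit3, 10.9% are shared with other annotated genes.

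The remaining ATF4 targets were read at low levels. Trib3 (chr2:152337422-152344032, minus strand), a pseudokinase gene that CHOP and ATF4 turn on, had 0, 0 and 0.320 CPM in cochlear heterozygotes and 0.625, 0.258 and 0.463 CPM in mutants. These are 0 to 3 and 2 to 5 reads, at the limit of 3 reads that a count of 0 allows, so that no fold is given. In the vestibule Trib3 had 2.72, 1.51 and 0.681 CPM in heterozygotes and 1.90, 0.977 and 2.38 CPM in mutants, overlapping groups with a difference of 0.10 (SE 0.36).

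Chac1 (chr2:119351229-119354381, plus strand), which encodes an enzyme that degrades glutathione, had 1.14, 0.531 and 0.961 CPM in cochlear heterozygotes and 0.750, 1.16 and 0.232 CPM in mutants, or 4 to 9 and 2 to 9 reads. Vestibular heterozygotes had 2.32, 1.38 and 1.26 CPM and mutants 4.70, 2.68 and 1.64 CPM. In the vestibule the replicate 1 library was the highest of each genotype, the groups overlapped, and the difference was 0.54 (SE 0.33), or 0.42 (SE 0.30) without both replicate 1 libraries. Each numbered vestibular pair was higher in the mutant, by 0.78, 0.62 and 0.22.

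Sesn2 (chr4:132492032-132510501, minus strand), which encodes sestrin 2, a leucine sensor that restrains mTORC1, had 2.79, 3.45 and 5.02 CPM in cochlear heterozygotes and 2.25, 4.26 and 7.30 CPM in mutants. Replicate 3 was the highest in each cochlear genotype, and the difference of 0.16 (SE 0.33) was 0.01 (SE 0.35) without both replicate 3 libraries. In the vestibule Sesn2 had 9.999, 7.93 and 7.69 CPM in heterozygotes and 11.03, 7.90 and 8.89 CPM in mutants. These groups overlapped as well, with a difference of 0.10 (SE 0.21).

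In the cochlea 3 of the 10 genes did not overlap between genotypes, all lower in mutants (Psat1, Phgdh and Psph), beside 13.6% of the 28342 genes listed for that organ (7.54% higher and 6.05% lower in mutants). In the vestibule 4 of the 10 did not overlap, 2 higher (Psat1 and Asns) and 2 lower (Atf4 and Ddit3), beside 16.3% of the 24726 genes listed there (7.45% higher and 8.87% lower). Since the 10 genes were chosen with these contrasts known, nothing is read from these counts. Trib3 and Chac1 were below 1 CPM too often in the cochlea to be tested there, so that 8 of the 10 passed the filter in the cochlea and 10 in the vestibule.

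**Figure D3:**
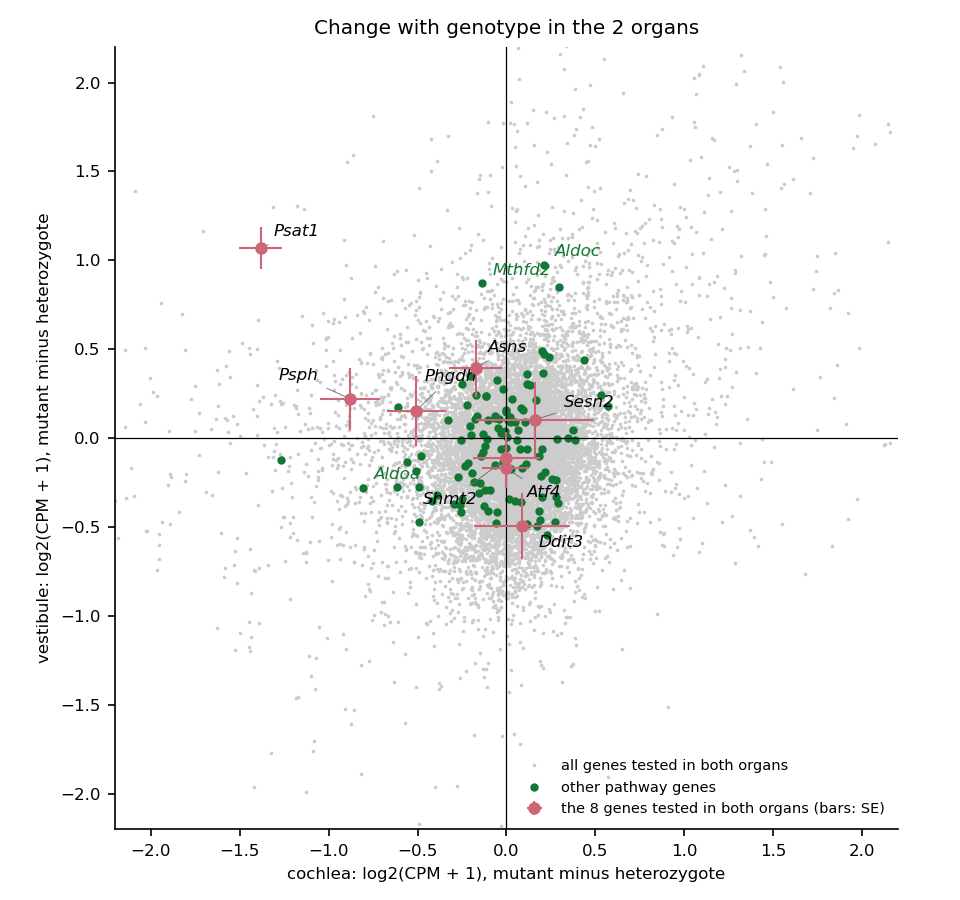
Mutant minus heterozygote difference on the log2(CPM + 1) scale in the cochlea (horizontal) and vestibule (vertical) for the 14674 genes tested in both organs, of which 98 lie outside the axes; red points with SE bars are the 8 members tested in both and green points other genes of the pathways. Psat1 lies alone among them at -1.38 and 1.07, and Psph and Phgdh lie left of 0 near a vestibular difference of 0.22 and 0.15.

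Per kilobase of exon, Psat1 was the highest of the 10 in both organs. In cochlear heterozygotes the mean level was 189 CPM per kilobase for Psat1, 28.7 for Psph and 28.5 for Atf4, and the last 2 overlapped. Asns (15.1) and Phgdh (14.5) followed and overlapped each other, as did Ddit3 (7.30) and Shmt2 (6.77), before Sesn2 (1.08), Chac1 (0.537) and Trib3 (0.0503). In vestibular heterozygotes Psat1 stood at 76.2 CPM per kilobase, Atf4 at 35.9 and Shmt2 at 26.4, with no overlap between neighbours. Asns (8.54), Phgdh (7.65) and Ddit3 (6.39) overlapped in turn, followed by Psph (4.52), Sesn2 (2.46), Chac1 (1.01) and Trib3 (0.771), of which only the last pair overlapped. Psph was thus second in the cochlear order, where it overlapped Atf4, and seventh in the vestibular one. The 2 orders come from different library kits, so no difference between organs is read from them.

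To see which genes resembled Psat1, the organ mean was subtracted from log2(CPM + 1) and each of the 14673 other genes tested in both organs was correlated with Psat1 over the 12 libraries. The 5 highest Pearson values were those of Fez1 (0.965), Rab15 (0.965), Slc52a3 (0.964), Casz1 (0.963) and Prkx (0.962). These values describe likeness to a gene chosen for its pattern and carry no test. Slc52a3, a riboflavin transporter gene, came closest in size, with means of 197 ± 15.4 and 78.6 ± 2.68 CPM in cochlear heterozygotes and mutants and of 168 ± 41.3 and 415 ± 94.0 CPM in the vestibule. Its differences were -1.31 and 1.30. Those of Fez1, which encodes a kinesin adaptor, were -0.87 and 0.56, and those of Rab15, a small GTPase gene, -0.77 and 0.48. Casz1, a zinc finger transcription factor gene, differed by -0.67 and 0.61, and Prkx, a protein kinase gene, by -0.71 and 0.71. Among the members Psph came nearest, with a value of 0.79 (rank 231), then Asns with 0.73 (rank 381) and Phgdh with 0.68 (rank 480). Sesn2, Shmt2, Atf4 and Ddit3 had values of -0.05, -0.07, -0.34 and -0.39.

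**Figure D4:**
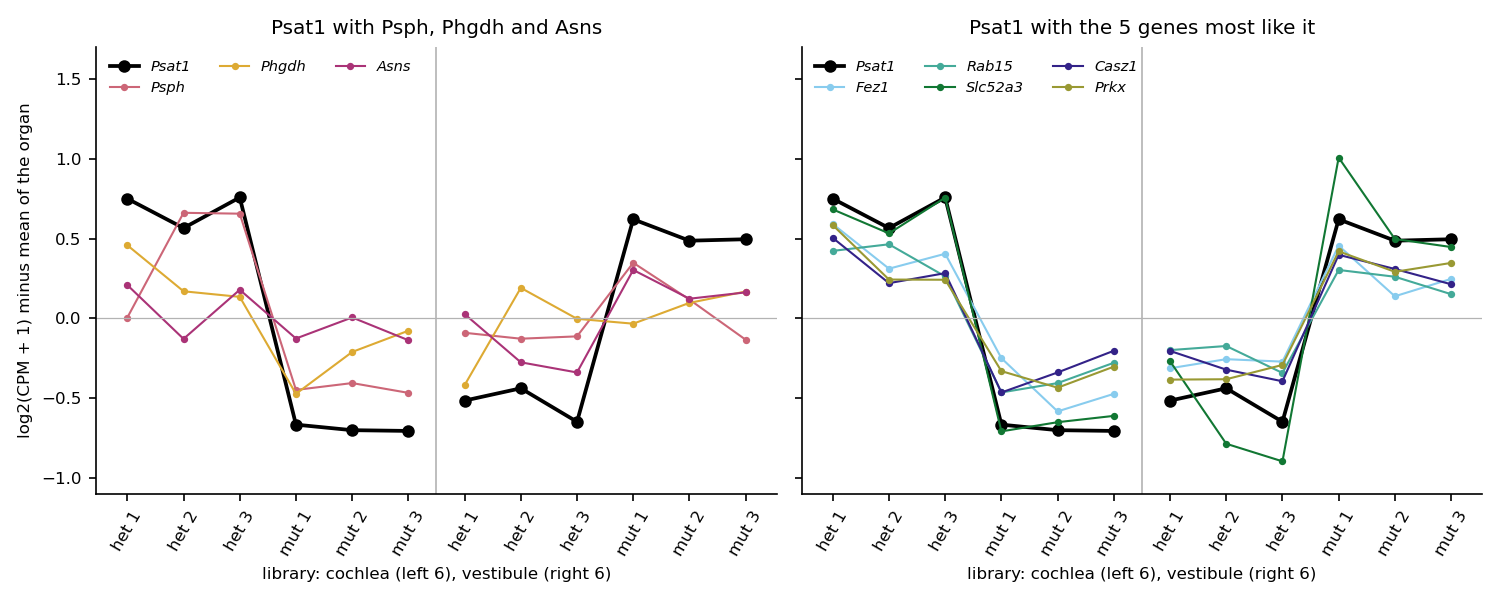
Level on the log2(CPM + 1) scale minus the mean of the organ (vertical axis, shared) in each library (horizontal axis; lines only join the points of a gene), for Psat1 with 3 members (left) and with the 5 genes most like it (right). Psat1 runs from 0.57 to 0.76 in cochlear heterozygotes and -0.71 to -0.67 in mutants, and from -0.65 to -0.44 and 0.49 to 0.62 in the vestibule.

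Most other genes of these pathways did not pass the test. From 8 lists with 114 genes, 5 of 112 tested in the cochlea (4.46%) passed, all lower in mutants, beside 4.41% of all 17985 genes. In the vestibule 2 of 113 (1.77%) passed, both higher, beside 3.50% of all 15595 genes. One of the 5, Fgf21, passed the filter on low values through the heterozygotes alone. The median difference of the pathway genes was -0.02 in the cochlea, beside 0.05 for all genes, and -0.06 in the vestibule, beside -0.06. With the replicate number as a block, 13 of 112 (11.6%) passed in the cochlea beside 8.52% of all genes, and 32 of 113 (28.3%) in the vestibule beside 23.3%. The lists were chosen with results of these data known.

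**Figure D5:**
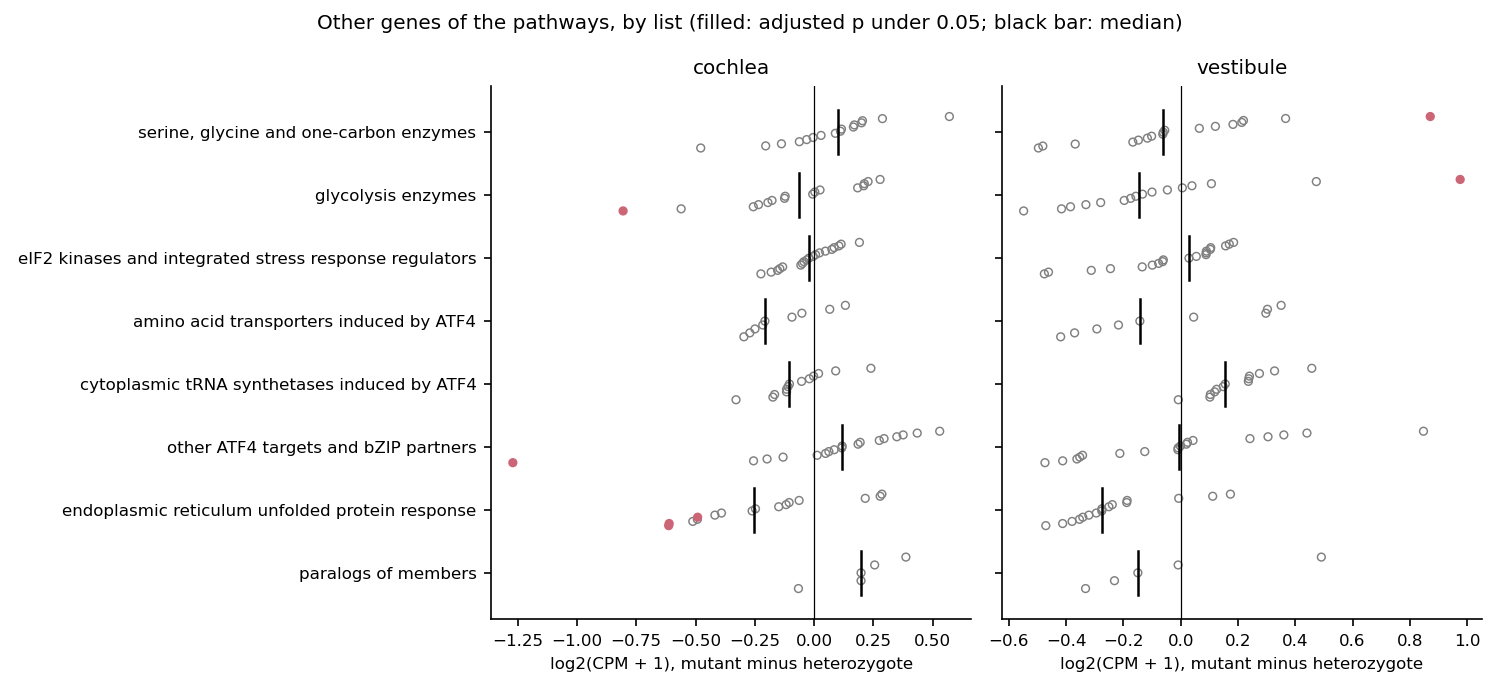
Mutant minus heterozygote difference on the log2(CPM + 1) scale (horizontal axes, with a range of their own in each organ) for the tested genes of 8 pathway lists that leave out the 10 members (rows); filled points passed the limma test at an adjusted p under 0.05 and black bars are medians. In the cochlea 5 points are filled, all left of 0, and in the vestibule 2, both right of 0.

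Among enzymes of serine, glycine and one-carbon metabolism, Mthfd2 rose in the vestibule. Mthfd2 (chr6:83305691-83325908) encodes a mitochondrial folate enzyme that works after SHMT2 and is an ATF4 target. Its level was 25.9 ± 1.68 CPM in vestibular heterozygotes and 48.4 ± 6.14 CPM in mutants, a rise of 0.87 (SE 0.15, adjusted p = 0.0172, limma), higher in all 3 mutants. In the cochlea it was 37.8 ± 2.95 and 34.4 ± 5.02 CPM (-0.14, SE 0.15). The test of the difference between organs gave -1.01 (SE 0.21, adjusted p = 0.0149, limma). The vestibular test was no longer passed when heterozygote replicate 2 or 3, or any single mutant library, was left out (adjusted p up to 0.0981), and the test between organs was not passed without both cochlear replicate 3 libraries (adjusted p = 0.0872). Mthfd2 was the 1 gene of 17 in the list that passed in the vestibule (2 at an unadjusted p under 0.05), and of 16 tested in the cochlea 0 passed (limma; 1 at an unadjusted p under 0.05, and 0 with edgeR). Of all genes 3.50% and 4.41% passed. With the block 1 of the list was higher and 1 lower in the vestibule and 0 passed in the cochlea, beside 23.3% and 8.52% of all genes. Shmt1, the cytosolic counterpart of Shmt2, differed by -0.48 in the vestibule (adjusted p = 0.245, and 0.0410 with the block). Mthfd1l differed by 0.29 in the cochlea and -0.37 in the vestibule, Mthfd2l by 0.57 and Cbs by -0.48 in the cochlea, all without passing.

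Glycolysis supplies the substrate of PHGDH. Aldoa, an aldolase gene, fell in the cochlea from 111 ± 8.15 to 63.0 ± 2.12 CPM (-0.81, SE 0.12, adjusted p = 0.00122, limma), and the difference in the vestibule was -0.28 (adjusted p = 0.411, and 0.0138 with the block). Aldoc, its paralog, rose in the vestibule from 40.1 ± 3.95 to 80.6 ± 15.6 CPM (0.98, SE 0.17, adjusted p = 0.0172, limma). Aldoc no longer passed when vestibular heterozygote replicate 2 or 3, or mutant replicate 2, was left out (adjusted p up to 0.0957). Between organs the changes of Aldoa differed by -0.53 (adjusted p = 0.197, and 0.00427 with the block) and those of Aldoc by -0.76 (0.190 and 0.0108). Aldoa and Aldoc were the only enzymes of the 16 tested that passed in either organ (limma; 2 in the cochlea and 5 in the vestibule at an unadjusted p under 0.05), beside 4.41% and 3.50% of all genes. With the block 2 of the 16 were lower in the cochlea, beside 8.52% of all genes in either direction. In the vestibule 2 were higher and 4 lower with the block, beside 23.3%. Pgam1, which sits beside the branch to serine, differed by 0.47 in the vestibule (adjusted p = 0.0785, and 0.00222 with the block), and Hk2, a hexokinase gene, by -0.55 (adjusted p = 0.104, and 0.000953 with the block). Eno2 differed by -0.56 in the cochlea (adjusted p = 0.222, and 0.0352 with the block).

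None of the 19 genes for eIF2 kinases and other regulators of the stress response passed in either organ (limma; 0 at an unadjusted p under 0.05 in the cochlea and 0 in the vestibule, and 0 with edgeR in both). Their medians were -0.02 in the cochlea and 0.03 in the vestibule, and the largest cochlear differences spanned -0.22 to 0.19. With the block 3 of the 19 were lower in the vestibule, beside 23.3% of all genes in either direction. Among the 3 were Impact (-0.46, adjusted p = 0.00950 with the block), an inhibitor of the kinase GCN2, and Dnajc3 (-0.24, adjusted p = 0.0477 with the block), an inhibitor of eIF2 kinases. Eif2s1, the phosphorylated subunit of eIF2, differed by -0.14 in the cochlea and -0.10 in the vestibule, and Oma1, a mitochondrial protease gene, by -0.15 and -0.31.

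Amino acid transporters that ATF4 induces did not pass either, 0 of 9 in each organ (limma; 0 at an unadjusted p under 0.05, and 0 with edgeR). Slc1a4, a serine and alanine carrier gene, differed by -0.25 in the cochlea and 0.30 in the vestibule (vestibular adjusted p = 0.339, and 0.0142 with the block). Slc7a11, the cystine carrier gene, differed by -0.21 and 0.35, and Slc7a1, an arginine and lysine carrier gene, by 0.13 and 0.30 (vestibular adjusted p = 0.365, and 0.0489 with the block). Slc7a5 and Slc3a2, which together form a leucine carrier, differed by -0.27 and -0.22 in the cochlea and by -0.22 and -0.14 in the vestibule. Slc1a5, a glutamine carrier gene named after its values were seen, differed by -0.30 and -0.37, and with the block it was lower in the vestibule (adjusted p = 0.516 without and 0.00919 with the block). The list's medians were -0.21 and -0.14, beside 0.05 and -0.06 for all genes. The block thus gave 2 genes higher and 1 lower in the vestibule, beside 23.3% of all genes, and 0 in the cochlea.

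The list of cytoplasmic tRNA synthetases holds 13 genes, among them Xpot, which encodes a tRNA exporter and not a synthetase. Of the 13, 0 passed in each organ (limma; 0 and 1 at an unadjusted p under 0.05, and 0 with edgeR). Their median was -0.10 in the cochlea and 0.16 in the vestibule, beside 0.05 and -0.06 for all genes tested. The cochlear minus the vestibular difference ran from -0.43 to -0.06 over the 13, with a median of -0.29 beside 0.11 for all genes. The list was not tested as a set, and no single gene passed the test of that difference (limma; 0 at an unadjusted p under 0.05, and 0 with edgeR). With the block 2 of the 13 passed it, Cars (adjusted p = 0.0446) and Wars (0.0495), beside 13.3% of all genes. With the block 4 of the 13 were higher in the vestibule, beside 23.3% of all genes in either direction. Among the 4 were Gars (0.46, adjusted p = 0.199 without and 0.00104 with the block) and Cars (0.24, adjusted p = 0.410 without and 0.0474 with the block). Wars and Yars differed by -0.33 and -0.17 in the cochlea, and Tars by 0.24 in the vestibule.

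Among 18 other ATF4 targets and partner genes tested in each organ, Fgf21 passed in the cochlea and 0 in the vestibule (limma; 2 there at an unadjusted p under 0.05, and 0 with edgeR). Fgf21, a stress hormone gene, had 10 to 13 reads in each cochlear heterozygote (1.41 ± 0.101 CPM) and 0 reads in every mutant, at least 3.82-fold lower with 3 reads per mutant library as the floor (adjusted p = 0.00755, limma). It passed the filter through the heterozygotes alone, so the filter fixed the direction of that call. It was not tested once any heterozygote was left out, and without a filter its adjusted p was 0.000985. In the vestibule Fgf21 was at 2.19 ± 0.615 and 1.93 ± 0.533 CPM, and the test between organs gave an adjusted p of 0.0980 (0.0413 with the block). Ddit4, an mTORC1 inhibitor gene, was at 66.0 ± 20.1 CPM in vestibular heterozygotes and 118 ± 23.9 CPM in mutants, a difference of 0.85 (adjusted p = 0.104, and 1.4e-05 with the block). Vestibular differences of Got1 (0.36) and Aldh18a1 (0.30) passed only with the block (adjusted p = 0.0119 and 0.0310). In the cochlea Cebpg, which encodes a partner of ATF4, differed by 0.35 (adjusted p = 0.179, and 0.0276 with the block) and Map1lc3b by 0.38 (0.281 and 0.0343). Genes whose symbol matched no RefSeq window were not searched for the element above. Searched were 18 of 19 genes of this list, 8 of 13 of the tRNA synthetase list and 14 of 17 serine and one-carbon enzymes. Likewise 6 of 9 transporters, 14 of 19 eIF2 regulators, 13 of 16 unfolded protein response genes and 4 of 5 paralogs were searched. The element stood in 8 of the 23 start windows of this list (34.8%; Atf3, Fgf21, Got1, Jdp2, Nupr1, Pck2, Pycr1 and Vldlr) and in 3 of 8 windows of the tRNA synthetase list (37.5%; Aars, Gars and Tars). It stood in 0 of 14 windows of serine and one-carbon enzymes, 0 of 27 of glycolysis enzymes, 1 of 9 of the transporters (Slc7a11), 1 of 15 of eIF2 regulators (Eif2s3x), 1 of 13 of the unfolded protein response (Herpud1) and 0 of 5 of the paralogs.

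Genes of the unfolded protein response of the endoplasmic reticulum held 3 of the 5 genes that passed in the cochlea. Of 16 tested there 3 fell and 0 rose, beside 2.52% of all genes lower in mutants, with a median of -0.25 beside 0.05 for all genes. Atf6, a sensor of unfolded protein, fell from 276 ± 9.69 to 180 ± 6.01 CPM (-0.61, SE 0.11, adjusted p = 0.00509, limma). Hyou1, a chaperone gene, fell from 125 ± 11.6 to 81.2 ± 0.342 CPM (-0.61, SE 0.12, adjusted p = 0.00857), and did not pass once heterozygote replicate 1 was left out (adjusted p = 0.0514). Calr, the calreticulin gene, fell from 253 ± 5.21 to 180 ± 18.5 CPM (-0.49, SE 0.12, adjusted p = 0.0330), and did not pass once any heterozygote, or mutant replicate 1 or 2, was left out (adjusted p up to 0.140). With limma without trend none of these 3 passed (adjusted p = 0.0640 for Atf6, 0.0755 for Hyou1 and 0.174 for Calr), and Calr did not pass without a filter on low values (0.0598).

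In the vestibule 0 of these 16 passed (limma; 7 at an unadjusted p under 0.05, and 0 with edgeR), with a median of -0.28 beside -0.06 for all genes. With the block 8 were lower there and 7 in the cochlea, beside 23.3% and 8.52% of all genes in either direction. Xbp1, a transcription factor of this response, differed by -0.41 in the vestibule (adjusted p = 0.111, and 0.00308 with the block), Creld2 by -0.47 (0.160 and 0.00185), Pdia6 by -0.34 (0.216 and 0.00844) and Hyou1 by -0.28 (0.274 and 0.0159). Atf6 differed by 0.17 in the vestibule, and the test of its difference between organs gave -0.78 (SE 0.19, adjusted p = 0.0369, limma), which was not passed without both cochlear replicate 3 libraries (0.151), nor when any single library other than vestibular heterozygote 3 or mutant 1 was left out (up to 0.106). Mthfd2 and Atf6 were the 2 of 112 pathway genes (1.79%) that passed the test between organs, beside 3.14% of all genes; 13 (11.6%) passed with the block, beside 13.3%.

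Paralogs of the members did not pass, 0 of 5 in each organ (limma; 1 and 0 at an unadjusted p under 0.05, and 0 with edgeR). Trib2, a relative of Trib3, differed by 0.39 in the cochlea (adjusted p = 0.216, and 0.0284 with the block). Trib1 differed by 0.20 in the cochlea and by -0.33 in the vestibule. Sesn3, a relative of Sesn2, differed by 0.49 in the vestibule (adjusted p = 0.363, and 0.0289 with the block) and Sesn1 by -0.23 (0.417 and 0.0468).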

How the data were processed

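The deposited values were CPM, made by the authors by scaling read counts to each library total, per the file headers. The submitters' processing notes name TopHat and GRCm38. Versions, the counter, its use of strand and its annotation are not given in the sources used here. All values (100%) were whole multiples of 1 read to within 1e-06, so reads could be recovered. Coordinates are those of GENCODE M21 (29596 of 29641 identifiers), and promoter windows those of RefSeq.

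A gene was tested in an organ where 3 or more of its 6 libraries reached 1 CPM, with limma 3.58.1 (trend, R 4.3.3) on log2(CPM + 1), mutant against heterozygote. Organs were compared by an interaction term over genes tested in both. P-values were Benjamini-Hochberg adjusted over all genes, with a threshold of 0.05. The fits within each organ were also run on simulated libraries drawn independently of each other. That simulation lacks the shared deviations of same-numbered libraries, so it cannot show how the fits act on these data. Same-numbered libraries of an organ deviated together (cochlear r 0.2258 to 0.4201, vestibular r 0.5083 to 0.7661), so the replicate number, which the labels give, was used as a block in an alternative fit. Also tried were a pseudocount of 0.25 or 4, a filter of 5 CPM or none, median-of-ratios and TMM scaling, edgeR 4.0.16 on recovered reads, no trend, and leaving libraries out.

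Members, gene lists and alternatives were chosen with earlier results of these data known. Named besides the members and Gfi1 are, per list and organ, up to 3 genes with the smallest unadjusted p, genes that passed between organs, and the 5 genes most like Psat1, passing over predicted genes. Genes named with a promoter match or as marker genes were taken from the whole list. Figures were drawn with matplotlib 3.10.9.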

Additional observations from a re-analysis of the deposited data

Results flagged for a closer look

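Psat1 was singled out because every cochlear mutant lay below and every vestibular mutant above the heterozygotes, a cochlear minus vestibular difference of -2.45, which was not tested since the gene was chosen for it. In the 5 genes most like Psat1 the mutants likewise lay fully below the heterozygotes in the cochlea and above them in the vestibule, with differences of -1.43 for Fez1, -1.24 for Rab15, -2.61 for Slc52a3, -1.29 for Casz1 and -1.42 for Prkx, not tested for the same reason. Mthfd2 (-1.01) and Atf6 (-0.78) were singled out by the interaction test itself. Organ and library kit cannot be told apart in any of these differences.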

How the results depend on the processing

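No alternative reversed a called value. Genes called numbered 794 in the cochlea, 546 in the vestibule and 461 between organs. With the replicate block, which pairs libraries of the same number, these became 1532, 3634 and 1955, and pathway genes called became 13, 32 and 13. Without a filter on low values 358 genes were called in the vestibule, and 1 pathway gene between organs. Without both cochlear replicate 3 libraries 270 genes and 0 pathway genes were called between organs (limma). Pathway genes called were 2 in the cochlea with limma without trend, and 4 in the vestibule without both replicate 1 libraries. Leaving out each library in turn gave 530 to 777 genes in the cochlea, 216 to 510 in the vestibule and 300 to 449 between organs, and 2 to 5, 0 to 2 and 1 to 2 pathway genes. The lowest vestibular count came without heterozygote replicate 2. The cause of these shifts was not tested. The Psat1 difference between organs was -2.55 with TMM scaling and -2.51 to -2.39 when a library was left out. In the organs it stayed between -1.44 and -1.34 and between 1.01 and 1.12 over all alternatives run. Depth limits Trib3 and Chac1 in the cochlea, where they had at most 9 reads per library.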
